A study of Drosophila melanogaster with 6 samples.

Results

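The vacuolar ATPase is described here through the 30 genes whose symbol begins with Vha, out of 15010 genes in a table of transcript levels from adult fruit flies (Drosophila melanogaster). Membership was decided by the symbol alone and by no measured value. Polyadenylated RNA labelled intestine was sequenced from 3 libraries of InR-DN progeny and 3 libraries of control progeny. The mothers of the InR-DN progeny carried MTD-GAL4, a driver of the maternal germline, together with a transgene for a dominant-negative insulin receptor (InR-DN), and the mothers of the control progeny carried MTD-GAL4 over a wild-type chromosome (MTD-GAL4/+). OregonR males fathered both groups, and the mothers of every library carried the driver. The question is how transcript levels in adult offspring vary with the genotype of their mothers, and since offspring can inherit the transgene, its own effect and that of the altered maternal germline cannot be told apart. The labels used here give no age or sex and do not tie the replicates to separate flies or crosses, so the tests below cover the spread between libraries only, which may be technical. Values are in TPM, a unit in which reads are divided by gene length and every library is brought to 1 common total.

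The vacuolar ATPase is a rotary proton pump. Its peripheral sector, V1, holds the subunits A to H and splits ATP, and its membrane sector, Vo, holds the subunits a, c, c'', d and e and carries protons across the membrane. The pump acidifies lysosomes, endosomes and secretory vesicles in nearly all cells. In some insect epithelia, such as the Malpighian tubule and the copper cells of the midgut, it also sits in the apical plasma membrane and moves protons out of the cell. Several subunits are encoded by more than 1 gene in the fly. The 15 genes that form the widely used set, 1 for each of the 13 subunits and 2 for the accessory proteins, are called core genes here, and the other 15 are called alternate paralogs; this division was drawn from background knowledge of the fly pump.

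The libraries labelled intestine also held transcripts of other body parts, which bears on every level below. Midgut enzyme genes were abundant, with the trypsin gene alphaTry at 4767 to 7517 TPM and the protease gene yip7 at 4071 to 6479.6 TPM over the 6 libraries. The 2 most abundant genes of 8 photoreceptor markers, ninaE and Arr2, lay at 2249 to 3015 TPM and 807 to 1191 TPM, and the oocyte genes osk and nos at 751 to 866 TPM and 114.9 to 190.2 TPM. The Malpighian tubule genes Aph-4 and Uro lay at 154 to 224 TPM and 84.8 to 128 TPM. Of the 12 testis and accessory gland markers in the table, 11 stayed below 1 TPM in every library, and the exception, twe, also acts in female meiosis. Levels of the pump genes therefore describe these mixed libraries, and fewer cells of a type cannot be told apart from less RNA per cell.

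Of the 30 vacuolar ATPase genes, 22 were transcribed at 8.91 TPM or more in every library and 8 never exceeded 0.326 TPM. All 15 core genes and 7 alternate paralogs belonged to the transcribed set, and the remaining 8 alternate paralogs made up the near-silent set. Together the 30 genes took 0.713% ± 0.00376 of all TPM in InR-DN progeny and 0.738% ± 0.0221 in control progeny (SD, n = 3 libraries each). Core genes supplied most of that sum, and the alternate paralogs contributed 4.44% ± 0.0874 of it in InR-DN progeny and 4.33% ± 0.0854 in control progeny (SD, n = 3 each). By library that contribution ranged from 4.23% to 4.51%, and the plot of all genes by library shows the same split in each.

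**Figure D1:**
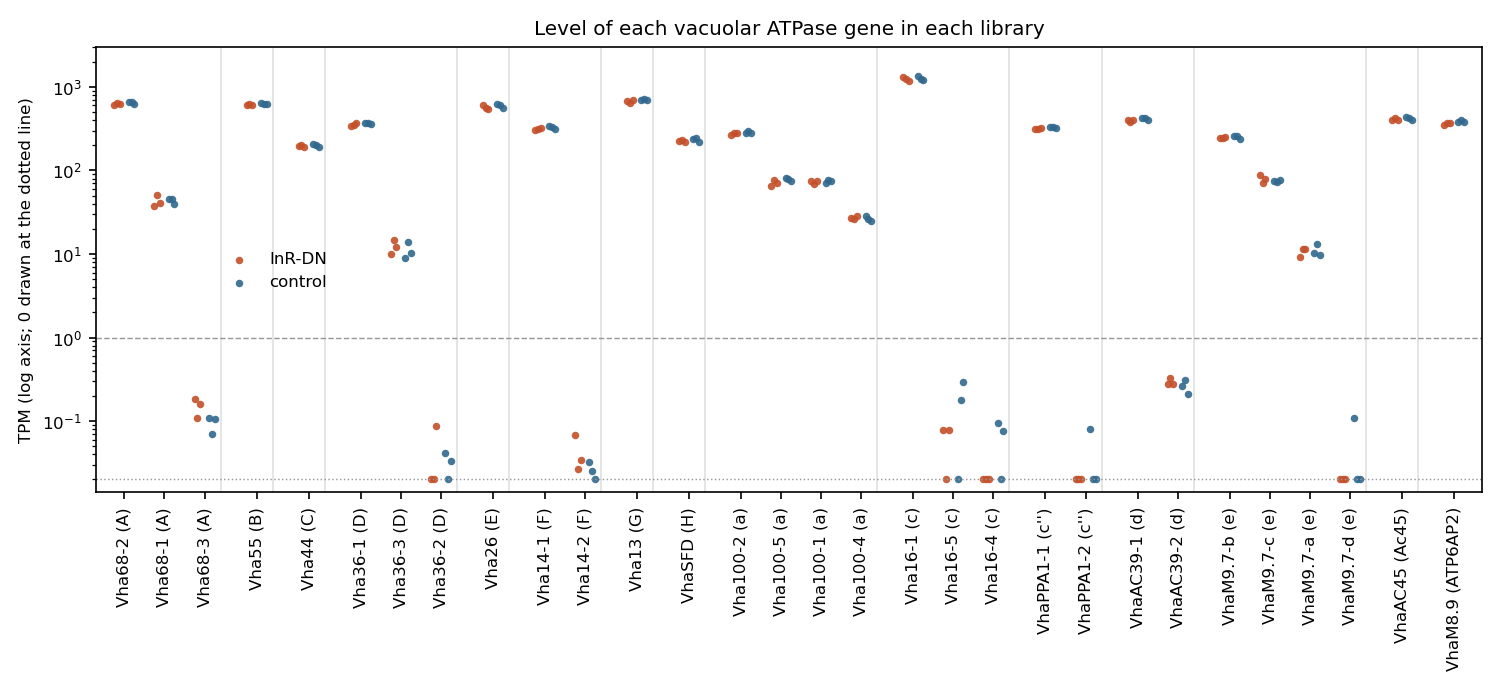
Level of each of the 30 vacuolar ATPase genes in TPM on a log axis, with the subunit in brackets; each point is 1 library, InR-DN progeny (orange) left of control progeny (blue), and values of 0 are drawn at the dotted line. The 22 transcribed genes lie at 8.91 TPM or more, above the dashed line at 1 TPM, and the 8 near-silent paralogs lie at 0.326 TPM or less.

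The catalytic core of V1 is built from subunits A and B, which bind ATP. Vha68-2, the core gene of subunit A (FBgn0263598; arm 2L, 12974322 to 12978607 in the BDGP6.54 annotation), lay at 609, 636 and 623 TPM in InR-DN replicates 1 to 3, against 657, 651 and 624 TPM in control replicates 1 to 3. Its paralog Vha68-1 lay at 37.2, 51.1 and 40.3 TPM in InR-DN replicates 1 to 3 and at 45.4, 45.9 and 39.7 TPM in control replicates 1 to 3. The core gene was thus the far more abundant of the pair in every library, with 14.5 times the mean TPM of Vha68-1 in InR-DN progeny and 14.7 times in control progeny. Vha55, the only gene of subunit B, lay at 614, 618 and 608 TPM in InR-DN progeny, against 638, 622 and 623 TPM in control progeny. It had the smallest coefficient of variation over the 6 libraries of all 22 transcribed members, 1.61%, and its groups did not overlap, although they lay close together.

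The stalks and the rotor of V1 came next. Vha13, which encodes subunit G of the peripheral stalk, lay at 676, 646 and 699 TPM in InR-DN progeny and at 699, 719.7 and 698 TPM in control progeny. Vha26, for subunit E of the same stalk, lay at 601, 563 and 545 TPM in InR-DN progeny and at 628, 601 and 562 TPM in control progeny. Groups overlapped for both stalk genes. Vha36-1, for subunit D of the central rotor, lay at 344, 346 and 372 TPM in InR-DN progeny, against 373, 368 and 363 TPM in control progeny. Its paralog Vha36-3 lay at 10.1, 14.8 and 12.1 TPM in InR-DN progeny and at 8.91, 13.8 and 10.4 TPM in control progeny. In both groups the highest Vha36-3 level was in replicate 2, and the groups covered nearly the same range. Vha14-1, for the rotor subunit F, lay at 306, 314 and 324 TPM in InR-DN progeny and at 341, 333 and 316 TPM in control progeny, while its paralog Vha14-2 lay at 0.0673, 0.0266 and 0.0338 TPM in InR-DN progeny and at 0.0321, 0.0256 and 0 TPM in control progeny. Lower levels were found for the regulatory subunits C and H, which take part in the reversible assembly and the silencing of free V1. Vha44 (subunit C) lay at 195, 200.4 and 188 TPM in InR-DN progeny and at 208, 199.6 and 191 TPM in control progeny. VhaSFD (subunit H) lay at 224, 233 and 217 TPM in InR-DN progeny and at 237, 241 and 221 TPM in control progeny.

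In the membrane sector, the proteolipid gene Vha16-1 (FBgn0262736; arm 2R, 6625242 to 6633090 in BDGP6.54), which encodes subunit c of the proton-carrying ring, was the most abundant of the 30 genes in every library. Vha16-1 lay at 1302, 1249.5 and 1174 TPM in InR-DN progeny and at 1352, 1254 and 1211 TPM in control progeny. Its paralog Vha16-5 lay at 0.0778, 0 and 0.0781 TPM in InR-DN progeny and at 0, 0.177 and 0.297 TPM in control progeny, and Vha16-4 did not exceed 0.0950 TPM in any library. VhaPPA1-1, for the related ring subunit c'', lay at 312, 315 and 323 TPM in InR-DN progeny and at 328, 329 and 319 TPM in control progeny, and VhaPPA1-2 at 0 TPM in all 3 InR-DN libraries, and in control progeny at 0.0802 TPM in replicate 1 and 0 TPM in replicates 2 and 3. VhaAC39-1, for subunit d, which couples the ring to the rotor, lay at 405, 383 and 397 TPM in InR-DN progeny and at 422, 422 and 397 TPM in control progeny, and its paralog VhaAC39-2 at 0.274, 0.326 and 0.276 TPM in InR-DN progeny and at 0.262, 0.313 and 0.210 TPM in control progeny. For c, c'' and d, then, 1 gene supplied nearly all transcripts of the subunit. The accessory proteins were transcribed at levels near that of subunit d. VhaAC45, the fly counterpart of mammalian ATP6AP1, lay at 401, 423 and 405 TPM in InR-DN progeny and at 437, 428 and 405 TPM in control progeny. VhaM8.9, named ATP6AP2 in BDGP6.54 and the counterpart of the mammalian prorenin receptor, lay at 348, 372 and 365 TPM in InR-DN progeny and at 384, 396 and 377 TPM in control progeny, and the groups did not overlap.

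Subunits a and e differed from the rest in how their transcripts were spread over paralogs. Subunit a, the large membrane subunit that forms the proton path and directs the pump to particular membranes, had 4 transcribed genes. Vha100-2 (FBgn0028670; arm 3R, 18390323 to 18399169 in BDGP6.54) lay at 266, 281 and 277 TPM in InR-DN progeny and at 281, 299 and 280.2 TPM in control progeny. Vha100-5 lay at 65.3, 77.4 and 71.1 TPM in InR-DN progeny and at 81.1, 79.4 and 73.7 TPM in control progeny. Vha100-1, whose product is known from synaptic vesicles of fly neurons, lay at 74.3, 69.6 and 75.0 TPM in InR-DN progeny and at 71.1, 76.4 and 74.3 TPM in control progeny. Thus Vha100-5 and Vha100-1 shared one range, and their order changed from library to library. Vha100-4, known from acid secretion in the fly midgut, lay lowest at 26.6, 26.3 and 28.4 TPM in InR-DN progeny and at 28.1, 25.9 and 24.8 TPM in control progeny. Paralogs other than Vha100-2 together held 38.4% ± 0.244 of the subunit's summed TPM in InR-DN progeny and 38.4% ± 0.672 in control progeny (SD, n = 3 each).

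Subunit e, a small membrane protein, showed a similar spread. VhaM9.7-b lay at 245, 245 and 254 TPM in InR-DN progeny and at 259, 259.9 and 237 TPM in control progeny, and VhaM9.7-c at 87.5, 70.9 and 77.9 TPM in InR-DN progeny and at 74.3, 72.2 and 77.8 TPM in control progeny. VhaM9.7-a lay at 9.13, 11.6 and 11.3 TPM in InR-DN progeny and at 10.2, 13.04 and 9.72 TPM in control progeny. Paralogs other than VhaM9.7-b held 26.5% ± 1.59 of the summed TPM of subunit e in InR-DN progeny and 25.4% ± 1.32 in control progeny (SD, n = 3 each), and the groups overlapped. By contrast, Vha68-1 held 5.76% to 7.44% of subunit A and Vha36-3 held 2.33% to 4.09% of subunit D over the 6 libraries. The shares were described over libraries and not tested between the groups.

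**Figure D2:**
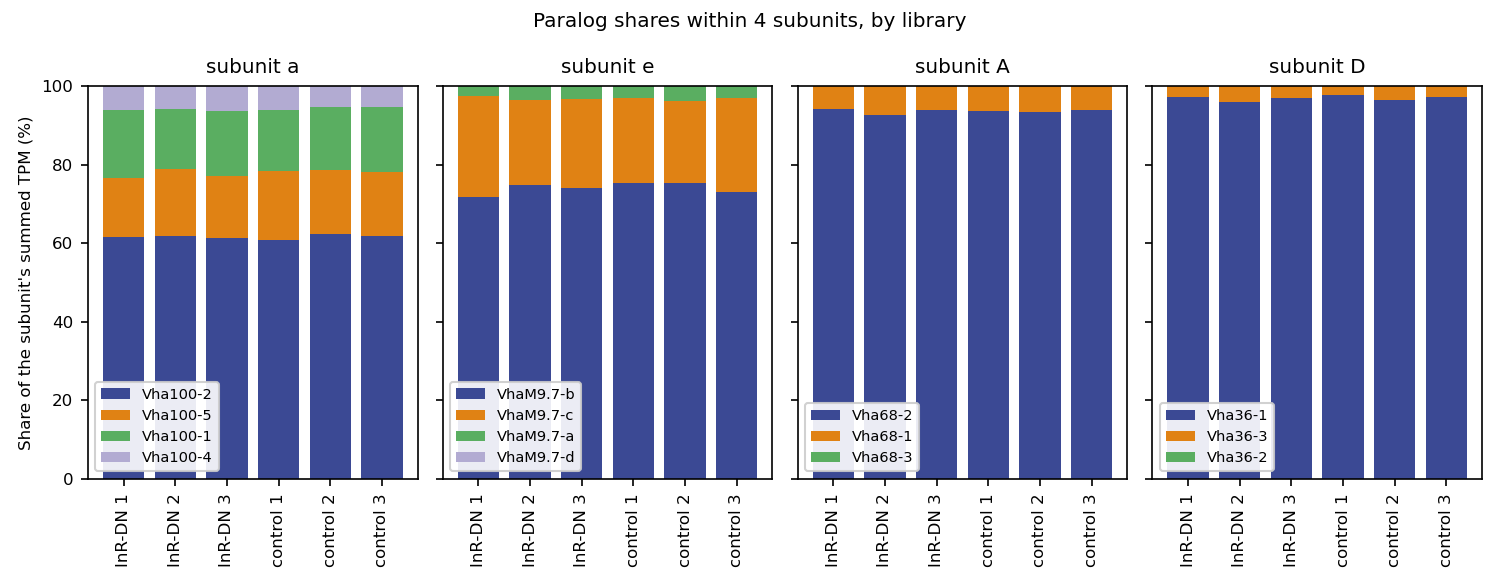
Share of each paralog in the summed TPM of subunits a, e, A and D, in percent, as stacked bars for the 3 InR-DN libraries (left in each panel) and the 3 control libraries (right). Vha100-2 holds 60.9% to 62.2% of subunit a and VhaM9.7-b 71.8% to 75.3% of subunit e, whereas Vha68-2 holds 92.5% to 94.2% of subunit A and Vha36-1 95.9% to 97.7% of subunit D.

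Levels of other tissue markers were set beside the restricted a subunits. The summed level of 8 neuron markers, of which nrv3 and nSyb were the most abundant, was 196 to 213 TPM in InR-DN progeny and 194 to 219 TPM in control progeny, and none of the 8 was at 0. The 3 copper cell markers, lab, Ptx1 and dve, summed to 20.1 to 23.5 TPM in InR-DN progeny and 20.8 to 23.3 TPM in control progeny. Their part in the levels of Vha100-1 and Vha100-4 was not tested. Transcribed members went both ways in InR-DN replicate 1. Vha68-1, Vha100-5, VhaM9.7-a and 7 of the 15 core genes were lowest of the 6 libraries there, while VhaM9.7-c was highest, at 87.5 TPM. The sum over the 30 genes, 7159 TPM, was the highest of the InR-DN libraries. Several marker sums also lay at an extreme in InR-DN replicate 1. The 7 enterocyte markers summed to 11868 TPM there and to 15368 to 17711 TPM in the other 5 libraries; the 3 protease genes alphaTry, betaTry and yip7 were lowest there, while the other 4 genes of the list were not. The photoreceptor sum (3681 TPM) and the Malpighian tubule sum (315 TPM) were likewise lowest in that library, and the oocyte and nurse cell sum (1305 TPM) was highest. Not every gene of these lists went with its sum. The photoreceptor gene norpA was highest there, the tubule genes CapaR and Irk2 were not lowest, and grk and orb were not highest. The part of these markers in those levels was not tested either.

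The 8 near-silent paralogs rested on few reads. Whole reads were recovered from the TPM values for all 30 genes, and the near-silent ones had 1 to 42 reads each in all 6 libraries together, while the transcribed gene with the fewest, VhaM9.7-a, had 441 reads in InR-DN progeny and 511 in control progeny. VhaAC39-2, a paralog of subunit d, had 6, 9 and 6 reads in InR-DN progeny and 6, 9 and 6 reads in control progeny. Vha68-3, a paralog of subunit A, had 8, 6 and 7 reads in InR-DN progeny and 5, 4 and 6 reads in control progeny. These 2 genes were the only near-silent members above a floor of 3 reads in every library, and no difference between the groups was detectable at this depth. Vha16-5 had 1, 0 and 1 reads in InR-DN progeny and 0, 3 and 5 reads in control progeny. Vha14-2, Vha36-2, Vha16-4, VhaPPA1-2 and VhaM9.7-d, paralogs of subunits F, D, c, c'' and e, had at most 2 reads in any library, which is below the floor. For VhaM9.7-d, which had 0 reads in InR-DN progeny and 1 read in control progeny, the floor of 3 reads stood for 0.271 to 0.344 TPM in InR-DN libraries and 0.260 to 0.327 TPM in control libraries. In the BDGP6.54 annotation 4 of the 8 near-silent genes (Vha16-5, Vha16-4, VhaPPA1-2 and VhaM9.7-d) lie on 1 uninterrupted exon, as do 3 of the 22 transcribed genes (Vha36-1, Vha14-1 and VhaM9.7-c).

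Some paralogs are close neighbours. Vha68-3 begins 178 bases downstream of the end of Vha68-2 on the same strand of arm 2L, yet averaged 0.152 ± 0.0385 TPM in InR-DN progeny and 0.0954 ± 0.0220 TPM in control progeny, whereas Vha68-2 averaged 623 ± 13.7 TPM in InR-DN progeny and 644 ± 17.2 TPM in control progeny (SD, n = 3 each). On arm 3R, the near-silent VhaPPA1-2 lies 2052 bases from the transcribed VhaPPA1-1. On the same arm Vha100-4 lies 517 bases from Vha100-2 on the same strand, and both of these genes were transcribed. Exons of Vha100-5 share 527 of their bases with a gene on the opposite strand, CR44144, which had 0.0837 TPM in InR-DN replicate 3 and 0 TPM in the other 5 libraries. Exon overlaps of the other members were at most 148 bases, for Vha44 with the opposite-strand gene Hmgs. The sources used here do not state the strand setting of the counting or the treatment of reads that match several paralogs, so the reads of overlapping genes cannot be told apart.

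Summed over paralogs, the subunits that occur in several copies per complex had the highest transcript levels. In known yeast and mammalian structures the ring subunit c and the V1 subunits A, B, E and G are present in several copies per complex and the others in 1. The summed levels of these 5 subunits exceeded those of all 10 others in all 6 libraries. Those 10 include the accessory proteins VhaAC45 and VhaM8.9. The lowest several-copy value was 545 TPM for subunit E in InR-DN replicate 3, and the highest single-copy value was 480.4 TPM for subunit a in control replicate 2. Subunit c averaged 1242 ± 64.4 TPM in InR-DN progeny and 1272 ± 72.2 TPM in control progeny, and subunit C, at the low end, 195 ± 5.99 TPM in InR-DN progeny and 199.7 ± 8.66 TPM in control progeny (SD, n = 3 each). The median summed level was 677 TPM for the 5 subunits with several copies and 355 TPM for the 10 with 1 copy. Within the several-copy group, G and A overlapped between libraries, as did B and E, so that those neighbours were not separated beyond their spread. This grouping by copy number was chosen after the levels were seen and is a description.

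**Figure D3:**
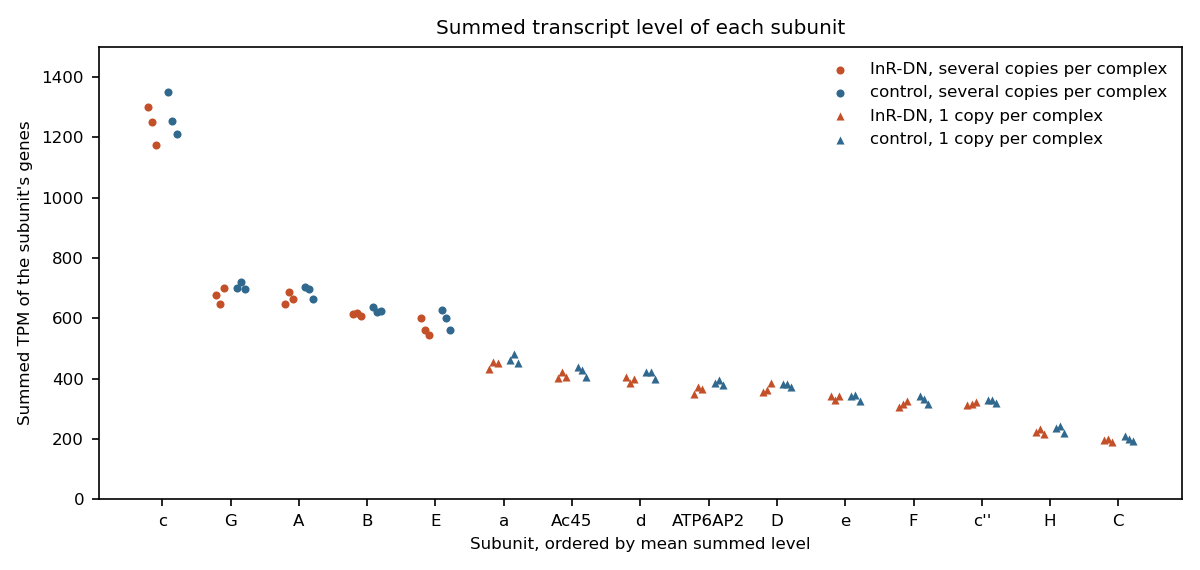
Summed TPM of the genes of each subunit in each library, ordered by the mean, with InR-DN progeny (orange) left of control progeny (blue). Circles are subunits with several copies per complex, and triangles are those with 1 copy, including the accessory proteins. Every circle lies above every triangle, with the lowest circle at 545 TPM and the highest triangle at 480.4 TPM.

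Between InR-DN and control progeny, no vacuolar ATPase gene passed the test. The levels were tested with limma on log2(TPM + 1) across the 10816 genes that reached 1 TPM in 3 or more libraries, and p-values were adjusted over all of them by the Benjamini-Hochberg method. Of the 22 members tested, 0 passed an adjusted p of 0.05, the background over all genes being 0% (0 of 10816 genes). At an unadjusted p under 0.05 there were also 0 of 22, against 3.15% of all genes tested, and voom on recovered reads likewise gave 0 members on either criterion. The 22 passed the filter in every library of both groups, so none entered through the level of 1 group. The 95% intervals show how small a difference the libraries leave room for: over the 15 core genes they ran from -0.23 to 0.13 on the log2 scale, and over the 7 alternate paralogs from -0.38 to 0.61.

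The differences that were seen were small and mostly in 1 direction. All 15 core genes had a lower mean log2 value in InR-DN progeny, with log2 fold changes of -0.09 to -0.02, as did 4 of the 7 alternate paralogs, in all 19 of 22 members against 45.4% of all genes tested. The core genes Vha16-1 and VhaM9.7-b turned to a higher mean in some fits with 1 library left out, reaching 0.0097 and 0.0035. The median log2 fold change was -0.05 over core genes, -0.02 over alternate paralogs and -0.04 over all 22 members, against 0.01 over all genes tested. These gaps depended on single libraries: without InR-DN replicate 1 the median was -0.03 over the 22 members and -0.03 over all genes tested, of which 61.4% then had lower means, and without control replicate 3 it was -0.07 over the members and 0.01 over all genes tested. Marker lists of other cell types had medians of like size, with lower means in InR-DN progeny for 8 of 8 photoreceptor markers (median -0.06), 6 of 8 neuron markers (-0.03), 5 of 7 enterocyte markers (-0.07), 2 of 3 copper cell markers (-0.04) and 3 of 6 Malpighian tubule markers (-0.02), and for 2 of 6 oocyte and nurse cell markers (0.03). In these lists the log2 fold changes of single genes spread more widely than those of the core genes. The spread was widest over enterocyte markers, -0.25 to 0.82, and narrowest over oocyte and nurse cell markers, -0.03 to 0.06. The part of the markers in the lower means of the pump genes was not tested. Controls did not hold together in this respect: each of the 15 core genes had its highest level in control replicate 1 or 2, while control replicate 3 lay within or below the InR-DN range for 13 of them. Summed over the 30 genes, TPM was 7159, 7148 and 7089 in InR-DN replicates 1 to 3 and 7562, 7450.2 and 7135 in control replicates 1 to 3, so the groups overlapped in that sum. Groups did not overlap for 2 of the 22 members, Vha55 and VhaM8.9, both lower in InR-DN progeny, against 6.36% of all genes tested in either direction and 3.78% with InR-DN progeny lower.

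**Figure D4:**
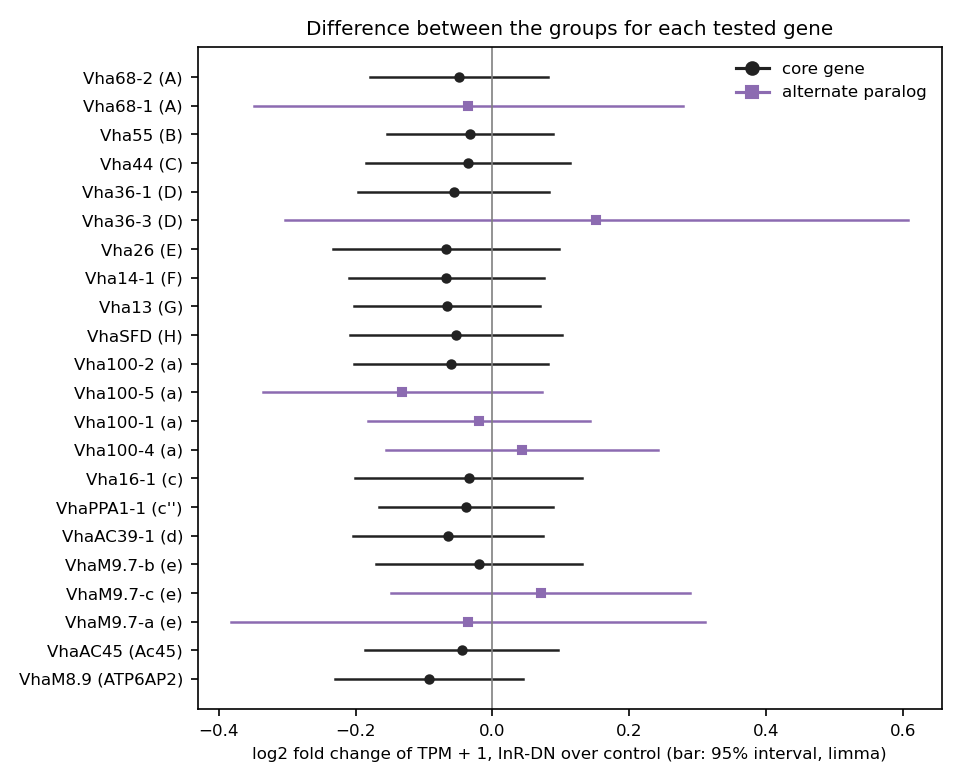
Log2 fold change of TPM + 1, InR-DN over control progeny, for the 22 tested members, with 95% limma intervals as bars; circles are core genes and squares alternate paralogs. Every interval includes 0, and the core genes lie between -0.09 and -0.02.

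The 4 members with the smallest unadjusted p were VhaM8.9, Vha100-5, Vha13 and Vha14-1, and none passed. VhaM8.9 averaged 362 ± 12.5 TPM in InR-DN progeny and 386 ± 9.65 TPM in control progeny (SD, n = 3 each), for a log2 fold change of -0.09 ± 0.06 (limma standard error, adjusted p = 1.00), and all 3 InR-DN libraries lay below the control mean. Vha100-5 averaged 71.3 ± 6.06 TPM in InR-DN progeny and 78.1 ± 3.87 TPM in control progeny, for a log2 fold change of -0.13 ± 0.09 (limma standard error, adjusted p = 1.00). Leaving out 1 library moved its fold change between -0.19 and -0.0715. The smaller difference was found without InR-DN replicate 1, and the larger without InR-DN replicate 2, where the unadjusted limma p was 0.0423, in a fit in which 8.69% of all genes had an unadjusted p under 0.05. Vha13 and Vha14-1 each had a log2 fold change of -0.07 ± 0.06 (limma standard error, adjusted p = 1.00 for both). The members with higher means in InR-DN progeny were Vha36-3 (0.15), VhaM9.7-c (0.07) and Vha100-4 (0.04), each an alternate paralog, with adjusted p = 1.00 in the limma fit. With 1 library left out, the log2 fold change ran from 0.022 (without control replicate 1) to 0.31 (without control replicate 2) for Vha36-3, from 0.0036 (without control replicate 3) to 0.091 (without control replicate 1) for Vha100-4, and from -0.0071 (without InR-DN replicate 1) to 0.14 (without InR-DN replicate 2) for VhaM9.7-c.

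Core genes varied little among the libraries. Over the 6 libraries the coefficient of variation of TPM was 1.61% to 5.41% for the 15 core genes (median 3.69%) and 3.47% to 19.6% for the 7 transcribed alternate paralogs (median 7.87%), against a median of 10.6% over all genes tested. The 743 genes at least as abundant as the lowest core gene had a median of 7.35%, and 13.5% of them varied less than the core median. Vha36-3 varied most, followed by VhaM9.7-a at 13.1% and Vha68-1 at 11.8%. Each of these 3 genes had its highest InR-DN level in replicate 2 of that group and its highest control level in replicate 2 of the controls. VhaM9.7-a and Vha36-3 had the fewest reads of the transcribed members.

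Genes that act with the pump were examined through 3 lists. The background for their counts is the share over all genes tested. Of those, 0% passed the limma test, 3.15% had an unadjusted limma p under 0.05, and 45.4% had lower means in InR-DN progeny. Assembly factors and counter-ion transport held 11 genes, all tested, of which 0 passed the limma test in either direction and 1 had an unadjusted p under 0.05. Among them 8 had lower and 3 higher means in InR-DN progeny (median log2 fold change -0.07). CAH2, a carbonic anhydrase, had the smallest unadjusted p of these and lay at 99.96, 101 and 107 TPM in InR-DN progeny and at 127, 132 and 113 TPM in control progeny (log2 fold change -0.27, limma adjusted p = 1.00), with no overlap between the groups. Rbcn-3A, a component of the complex that assembles V1 onto Vo, had a log2 fold change of -0.10 (limma adjusted p = 1.00), and its groups did not overlap either. Genes of the lysosomal platform of the nutrient-sensing kinase mTORC1, which binds the pump, numbered 8, with 0 passing, 0 at an unadjusted p under 0.05, and 3 lower and 5 higher means (median 0.0024). CG14184, the fly Lamtor1 gene, and RagA-B, a Rag GTPase, had log2 fold changes of 0.13 and 0.11, with a limma adjusted p = 1.00 for both, and each was higher in all 3 InR-DN libraries than in any control library. Over all genes tested, groups did not overlap for 6.36%. CAH2, Rbcn-3A, CG14184 and RagA-B were named here for having the smallest unadjusted limma p of their lists. Of 20 lysosomal proteins 18 were tested, 0 passed and 0 had an unadjusted p under 0.05, with 10 lower and 8 higher means (median -0.02), and the smallest unadjusted p belonged to CG31148 (log2 fold change 0.32), a glucocerebrosidase gene, and Hexo2 (0.20), a hexosaminidase gene, again with a limma adjusted p = 1.00 and with overlapping groups.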

How the data were processed

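The authors deposited TPM values of 15010 genes, with 1 column for each of the 6 libraries, per the file headers. The submitters' processing notes name TopHat and edgeR without roles; build, annotation and counter: not given in the sources used here. All 30 symbols matched BDGP6.54 genes. TPM times annotated exon length gave whole multiples of 1 read for 14071 genes (94.7% of 14857 with a length, relative tolerance 1e-06), 31593965 to 42022916 reads per library. The floor was 3 reads per library and covers counting error only. Replicates within a group differed beyond sampling noise (chi-square per degree of freedom at least 22.5).

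Values of log2(TPM + 1) were tested with limma 3.58.1 (R 4.3.3, trended variance prior) for genes that reached 1 TPM in 3 or more libraries. The code was tested on simulated data with independent noise and with changes larger than that of any member. That check does not cover differences as small as those seen here. Alternatives were other pseudocounts, filters, scalings and variance priors, leaving out 1 library at a time and a replicate block; voom on recovered reads was added after seeing the data.

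Members and lists were chosen with earlier results of these data known. All members are named, with per-library values for the 2 most abundant per subunit and the 4 with the smallest p; for pathway lists the 2 with the smallest p are named, for marker lists the most abundant. Other named values were chosen after they were seen. Sequences are not used here.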

Additional observations from a re-analysis of the deposited data

How the results depend on the processing

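No vacuolar ATPase gene and no pathway gene passed under any alternative run. Over all genes the count of 0 became 1 with a pseudocount of 0.1 and was 0 to 1 when 1 library was left out (1 without InR-DN replicate 1 or control replicate 1). With 1 library left out, 15 to 19 of 22 members had lower means in InR-DN progeny, their median log2 fold change was -0.07 to -0.03, and 0 to 1 member (Vha100-5, without InR-DN replicate 2) had an unadjusted p under 0.05. The alternatives gave 352 member values, of which 340 kept their direction; the 12 reversals all came from leaving out a library, and those ranges were -0.17 to 0.058 for Vha68-1, -0.0465 to 0.014 for Vha100-1, -0.070 to 0.0097 for Vha16-1, -0.063 to 0.0035 for VhaM9.7-b, -0.0071 to 0.14 for VhaM9.7-c and -0.11 to 0.083 for VhaM9.7-a. The cause of these reversals was not tested. Quantile normalization gave a member median of -0.06. Replicate numbers did not pair the libraries (correlations of same-numbered deviations -0.41, -0.18 and -0.13), and with the replicate block 0 members passed and the median stayed at -0.04. Depth was lowest for the 8 near-silent paralogs, and among tested members for VhaM9.7-a, with 115 to 216 reads per library. The near-silent paralogs entered only the fit without a filter. There 23 of 30 members had lower means in InR-DN progeny, against 48.4% of all genes, and 0 had an unadjusted limma p under 0.05. Having 1 to 42 reads each in all 6 libraries together, the near-silent paralogs allow no firm comparison.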
